A study of Homo sapiens with 9 samples.

Results

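The genes described here encode the proteasome, its activators and inhibitor, and the chaperones that assemble it. They were chosen by symbol, as PSMA, PSMB, PSMC, PSMD, PSME, PSMF or PSMG followed by digits, together with ADRM1 and POMP, and without hyphenated names and pseudogenes. The rule gave 50 of the 60612 genes in the deposited table, and used no measured value. The description deposited with the table names the proteasome for 49 of them, and ADRM1, a ubiquitin receptor of the proteasome, is described there as an adhesion regulating molecule. By role they are 3 immunoproteasome catalytic subunits, 7 constitutive beta subunits, 8 alpha subunits, 1 thymoproteasome subunit, 6 base ATPases, 4 base subunits that are not ATPases, 8 lid subunits, 5 activators and inhibitors, and 8 assembly chaperones.

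The cells were MDA-MB-231, an established line of human triple-negative breast cancer, and RNA was taken 48 h after lipid transfection with MILIP siRNA2, MILIP siRNA1 or a negative control siRNA. MILIP, listed as MAFG-DT, is a long noncoding RNA. Each group had 3 libraries, 9 in all, and every group is the same line. The transfection text speaks of siRNAs to PLANE where the title of the study and the treatment fields name MILIP, and the groups here follow the treatment fields. The labels do not tell whether the libraries within a group were grown as separate cultures. The p-values therefore reflect the variation among these libraries alone, and that variation could be technical.

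The proteasome degrades proteins tagged with ubiquitin. Its barrel-shaped core has outer rings of alpha subunits and inner rings of beta subunits, of which PSMB5, PSMB6 and PSMB7 carry the peptidase sites. The regulatory particle on its ends has a base, whose ATPases unfold the substrate, and a lid, which removes ubiquitin. Interferon-gamma is known to induce PSMB8, PSMB9 and PSMB10, which take the places of PSMB5, PSMB6 and PSMB7 in newly assembled cores and alter which peptides are cut for MHC class I presentation.

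Libraries held 15281220 to 19759371 gene counts, and proteasome genes took 0.828% to 0.92% of them. The limit that 0 counts allows is 3 counts, equal to 0.152 to 0.196 CPM (counts per 1e+06 counts) across libraries, which takes in counting error alone. MILIP averaged 0.616 ± 0.316 CPM with siRNA2, 1.24 ± 0.641 CPM with siRNA1 and 8.41 ± 0.254 CPM with control siRNA (SD, n = 3 each), or 7.32% and 14.7% of the control level. Its log2 fold changes were -3.73 with siRNA2 (edgeR, adjusted p = 5.34e-11) and -2.74 with siRNA1 (edgeR, adjusted p = 2.51e-09). Exact permutation of the libraries gave p = 0.1 for each, two-sided, the smallest that 3 against 3 libraries allow. Mitochondrial ribosomal RNA took 0.864% to 0.916% of counts with siRNA2, 0.988% to 1.228% with siRNA1 and 0.601% to 0.654% with control siRNA, and its part in the results was not tested. The 6 MDA-MB-231 markers, vimentin among them, summed to 6811 to 6849 CPM with siRNA2, 6891 to 7237 CPM with siRNA1 and 7249 to 7624 CPM with control siRNA. Most was vimentin, at 4013 to 4162 CPM with siRNA2, 4368 to 4771 CPM with siRNA1 and 4530 to 4942 CPM with control siRNA. KRT18 had 382 to 398 CPM with siRNA2, 788 to 866 CPM with siRNA1 and 466 to 520 CPM with control siRNA. CD44 and FN1 lay above control with siRNA2, CD44 and MSN below control with siRNA1, and ZEB1 below control with both. The 6 luminal genes, ERBB2, ESR1 and PGR among them, summed to 81.8 to 87.5 CPM with siRNA2, 60.5 to 71.5 CPM with siRNA1 and 72.6 to 78.9 CPM with control siRNA. Most of that sum was ERBB2, at 68.6 to 76.1 CPM with siRNA2, 50.1 to 57.5 CPM with siRNA1 and 59.0 to 64.1 CPM with control siRNA. ESR1 had 0.349 to 0.955 CPM across libraries, and PGR had 0 CPM in all but siRNA2 library 3 (0.058 CPM).

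Proteasome genes passed the test about as often as other genes, and their changes were small. With siRNA2, 10 of the 48 tested members fell and 13 rose against control (edgeR's quasi-likelihood test, Benjamini-Hochberg adjusted p below 0.05). These 23 are 47.9% of the members, beside 56.1% of all 15345 genes tested, of which 28.9% were lower and 27.2% higher. With siRNA1, 12 members fell and 12 rose, 24 of the 48, beside 50.4% of all genes tested, 25.3% lower and 25.1% higher. The other 2 members were not tested. PSMA8, a testis form of an alpha subunit, had 0 counts in every library, and PSMB11, the thymus form of a beta subunit, had 1 count in 1 library of siRNA2. Because both comparisons use the same control libraries, they are not independent of each other.

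**Figure D1:**
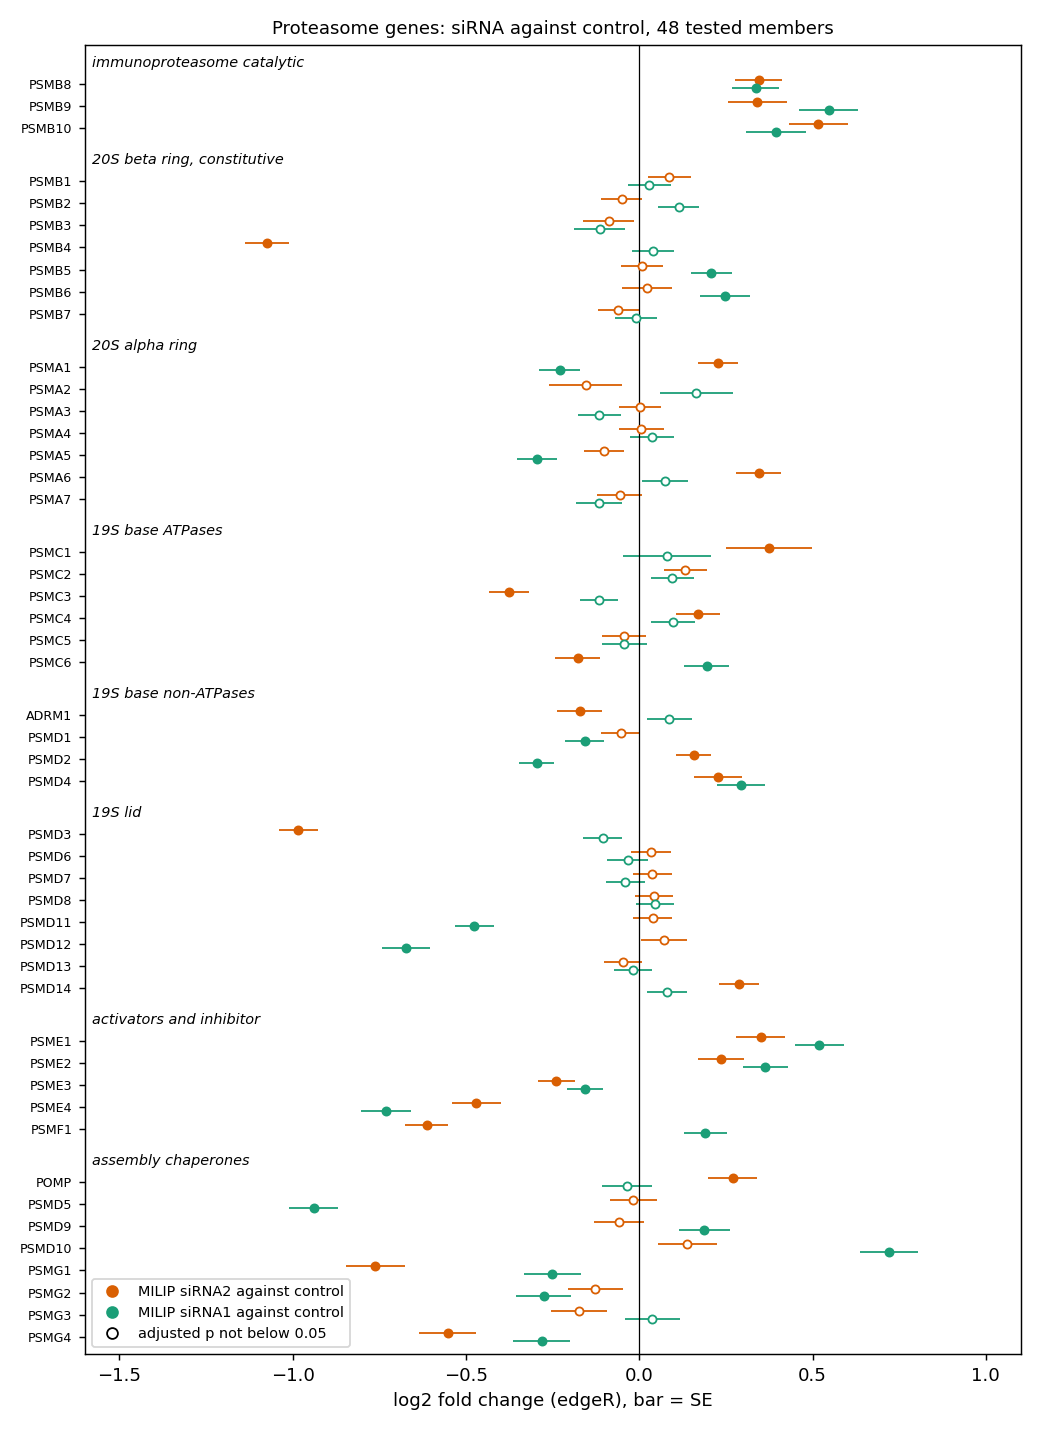
Log2 fold change of the 48 tested proteasome genes (rows, grouped by role) with MILIP siRNA2 (orange) and MILIP siRNA1 (green) against control siRNA, with the SE as bars and open symbols where the adjusted p was not below 0.05. Most points lie within 0.5 of 0, while PSMB4 and PSMD3 with siRNA2 and PSMD5 with siRNA1 lie far to the left and all 3 immunoproteasome subunits lie to the right with both siRNAs.

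The median log2 fold change of the members was 0.004 with siRNA2 and 0.032 with siRNA1, beside -0.011 and 0.003 over all genes tested. In absolute size the median was 0.156 with siRNA2 and 0.157 with siRNA1, beside 0.37 and 0.31 over all genes. Changes of at least 0.5 on the log2 scale were seen in 6 members (12.5%) with each siRNA, against 37.7% of all genes with siRNA2 and 31.5% with siRNA1. At least 1 on that scale was reached by 1 member, PSMB4 with siRNA2, while 11.5% of all genes did so with siRNA2 and 10.6% with siRNA1. The members were not set against genes of like level.

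Few members moved the same way with both siRNAs. Called higher with both were 6 members, PSMB8, PSMB9, PSMB10, PSME1, PSME2 and PSMD4, which is 12.5% of those tested beside 11.8% of all genes. Called lower with both were 4, PSME4, PSME3, PSMG1 and PSMG4, which is 8.33% beside 11.1% of all genes. A further 4, PSMF1, PSMC6, PSMD2 and PSMA1, were called in opposite directions, which is 8.33% beside 9.93% of all genes. Called with neither siRNA were 15 members, or 31.2%, beside 26.3% of all genes. Leaving out siRNA1 library 3 reduced the 4 lower members to 2, and leaving out control library 1 or siRNA2 library 1 reduced the 4 opposite members to 2. These shares are near those of all genes.

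All 3 immunoproteasome subunits rose with both siRNAs, while none of the constitutive subunits they replace was called with both. A level is given as TMM-scaled FPKM, that is, counts scaled by exonic length and by library depth. The exonic length is the deposited value for the gene, 3480 bases for PSMB8 and 1549 bases for PSMB5. The length of the RNA expressed may differ from it. Levels of different genes, and ratios between them, therefore compare only roughly, while levels of the same gene compare across libraries. PSMB8, which takes the place of PSMB5 and its chymotrypsin-like site, lies on chr6:32840717-32844679 (GRCh38) and stood at 27.6, 27.3 and 27.4 FPKM with siRNA2, 29.2, 25.2 and 27.5 FPKM with siRNA1, and 20.4, 21.7 and 22.7 FPKM with control siRNA. Every library of either siRNA lay above every control library, and the siRNAs overlapped. PSMB8 rose with siRNA2 (log2 fold change 0.34, SE 0.068, adjusted p = 0.000109) and with siRNA1 (log2 fold change 0.34, SE 0.068, adjusted p = 0.000199). PSMB9, which takes the place of PSMB6 and its caspase-like site, lies on chr6:32844136-32859851 and stood at 10.5, 10.4 and 11.7 FPKM with siRNA2, 13.1, 11.8 and 12.7 FPKM with siRNA1, and 8.34, 8.01 and 9.35 FPKM with control siRNA. Its control libraries were again the lowest, and those of siRNA1 lay above those of siRNA2. Against control it rose with siRNA2 (log2 fold change 0.34, SE 0.084, adjusted p = 0.00128) and with siRNA1 (log2 fold change 0.55, SE 0.084, adjusted p = 6.69e-06). PSMB10, which takes the place of PSMB7 and its trypsin-like site, lies on chr16:67934506-67936864 and stood at 27.9, 25.5 and 28.0 FPKM with siRNA2, 25.4, 21.8 and 27.6 FPKM with siRNA1, and 18.7, 18.8 and 19.3 FPKM with control siRNA. The control libraries lay close together and under all others. It rose with siRNA2 (log2 fold change 0.52, SE 0.086, adjusted p = 1.35e-05) and with siRNA1 (log2 fold change 0.39, SE 0.086, adjusted p = 0.000475).

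The constitutive catalytic subunits were more abundant, and with siRNA2 none of them passed the test. PSMB5 had 91.7, 87.3 and 87.6 FPKM with siRNA2, 106, 96.4 and 104 FPKM with siRNA1, and 85.0, 87.2 and 92.8 FPKM with control siRNA. Only with siRNA1 did its libraries lie above control, where it rose (log2 fold change 0.21, SE 0.06, adjusted p = 0.00551), while the siRNA2 value was 0.01 (adjusted p = 0.919). PSMB6 had 129.7, 118 and 121 FPKM with siRNA2, 151, 134 and 148 FPKM with siRNA1, and 113, 113 and 138 FPKM with control siRNA. Its control library 3 lay above siRNA1 library 2, and it too rose with siRNA1 (log2 fold change 0.25, SE 0.072, adjusted p = 0.00561) with a value of 0.02 (adjusted p = 0.828) for siRNA2. Without siRNA1 library 1 neither call was kept, with adjusted p = 0.0637 for PSMB5 and 0.0582 for PSMB6. PSMB7 had 177, 174 and 176 FPKM with siRNA2, 187, 172 and 188 FPKM with siRNA1, and 180.5, 169 and 199.7 FPKM with control siRNA. All its groups overlapped, with log2 fold changes of -0.06 (adjusted p = 0.412) for siRNA2 and -0.01 (adjusted p = 0.917) for siRNA1.

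**Figure D2:**
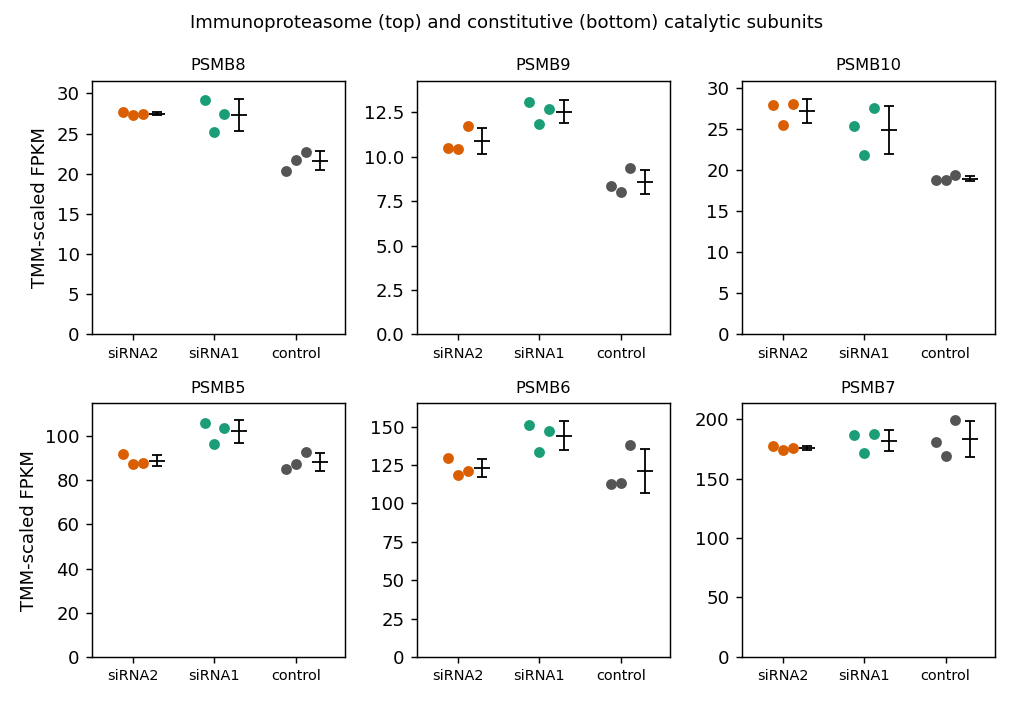
Level in TMM-scaled FPKM of the immunoproteasome subunits PSMB8, PSMB9 and PSMB10 (top) and of the constitutive catalytic subunits PSMB5, PSMB6 and PSMB7 (bottom), with a point for each library and bars for the mean ± SD (n = 3). Every siRNA2 and siRNA1 library lies above the control libraries in the top row, and the groups overlap in most of the bottom row.

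Set over its constitutive counterpart within each library, every immunoproteasome subunit was higher with both siRNAs. As a percentage of the PSMB5 level, PSMB8 was 30.2%, 31.3% and 31.3% with siRNA2, 27.6%, 26.1% and 26.5% with siRNA1 and 24.0%, 24.9% and 24.5% with control siRNA. The means were 30.9% ± 0.652 with siRNA2, 26.7% ± 0.748 with siRNA1 and 24.5% ± 0.461 with control siRNA (SD, n = 3 each), with no overlap between any groups. As a percentage of PSMB6, PSMB9 was 8.85% ± 0.795 with siRNA2, 8.70% ± 0.13 with siRNA1 and 7.08% ± 0.318 with control siRNA (SD, n = 3 each). As a percentage of PSMB7, PSMB10 was 15.4% ± 0.674 with siRNA2, 13.7% ± 1.02 with siRNA1 and 10.4% ± 0.709 with control siRNA (SD, n = 3 each). For the 3 immunoproteasome subunits summed, over the 3 constitutive ones summed, the share was 16.9% ± 0.489 with siRNA2, 15.1% ± 0.425 with siRNA1 and 12.5% ± 0.586 with control siRNA (SD, n = 3 each). The constitutive catalytic subunits thus remained the larger part of the RNA in every library. Fewer cells of a type and less RNA per cell cannot be told apart in such bulk libraries. Leukocytes also carry immunoproteasome RNA, and 10 leukocyte markers summed to 8.99 to 10.3 CPM with siRNA2, 1.40 to 3.29 CPM with siRNA1 and 2.10 to 3.11 CPM with control siRNA. The siRNA2 sum was mostly CD14, at 8.17 to 8.79 CPM with siRNA2, 0.674 to 2.21 CPM with siRNA1 and 1.73 to 2.76 CPM with control siRNA. CD68 had 0.66 to 1.11 CPM with siRNA2, 0.393 to 0.462 CPM with siRNA1 and 0.294 to 0.462 CPM with control siRNA. CD3E, MS4A1 and NKG7 were at 0 in all 9 libraries, and the siRNA1 sums overlap those of control. The sum of 6 fibroblast markers was 71.4 to 74.0 CPM with siRNA2, 51.0 to 59.5 CPM with siRNA1 and 11.6 to 14.2 CPM with control siRNA. The sum of 4 endothelial markers was 18.4 to 20.4 CPM with siRNA2, 5.78 to 7.09 CPM with siRNA1 and 8.78 to 11.1 CPM with control siRNA. Most of the fibroblast sum was COL1A1. It had 58.8 to 63.0 CPM with siRNA2, 41.7 to 49.5 CPM with siRNA1 and 7.29 to 9.64 CPM with control siRNA. PDGFRB lay above control with both siRNAs and COL1A2 with siRNA2, whereas THY1 lay below control with both. LUM reached at most 0.063 CPM and DCN 0.305 CPM in any library. The endothelial sum was mostly PECAM1 and KDR. None of the 10 fibroblast and endothelial markers was at 0 in every library, and the part of these marker genes in the results was not tested.

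**Figure D3:**
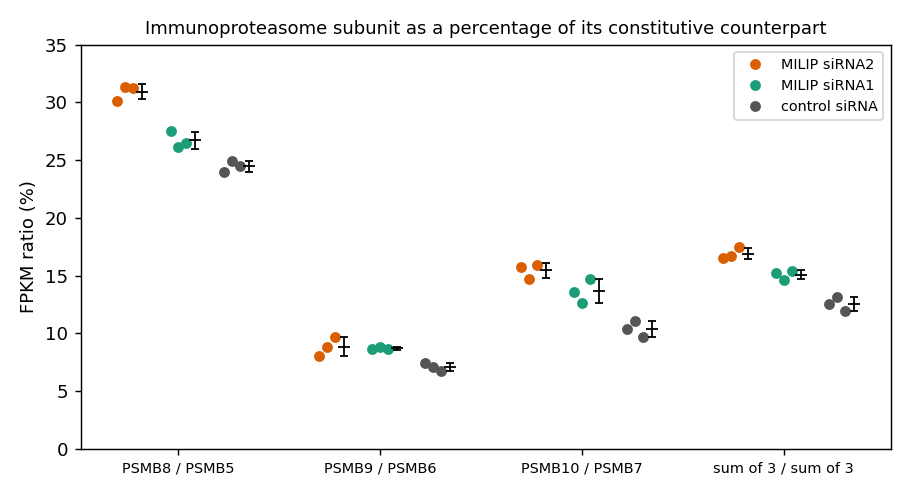
Immunoproteasome subunit as a percentage of the FPKM of its constitutive counterpart, and of the sums of the 3 of each, with a point for each library and bars for the mean ± SD (n = 3). Every library of MILIP siRNA2 and MILIP siRNA1 lies above every control library in all 4 sets.

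The reads of PSMB8 and PSMB9 carry a limit. The PSMB8 gene overlaps PSMB9 and PSMB8-AS1 on the opposite strand, PSMB9 overlaps TAP1 and PSMB8 on the opposite strand and PSMB8-AS1 on its own, and PSMB10 and PSMB5 each overlap another gene on the same strand. No source used here says whether the counting used strand, and reads in the overlaps cannot be assigned with certainty.

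The activator subunits PSME1 and PSME2, also interferon-gamma targets, rose with both siRNAs, whereas PSME3 and PSME4 fell with both. PSME1 and PSME2 join in the ring that opens the core without ubiquitin. PSME1 had 61.5, 61.6 and 67.2 FPKM with siRNA2, 72.3, 67.1 and 74.7 FPKM with siRNA1, and 49.4, 45.1 and 54.8 FPKM with control siRNA. All siRNA libraries lay above control, and it rose with siRNA2 (log2 fold change 0.35, SE 0.071, adjusted p = 0.000168) and with siRNA1 (log2 fold change 0.52, SE 0.071, adjusted p = 1.24e-06). PSME2 rose by 0.24 (adjusted p = 0.00356) with siRNA2 and 0.36 (adjusted p = 5.6e-05) with siRNA1 on the log2 scale. PSME3, a nuclear activator related to these, had log2 fold changes of -0.24 (adjusted p = 0.000427) with siRNA2 and -0.16 (adjusted p = 0.0161) with siRNA1, and the siRNA1 call was lost without siRNA1 library 3 (0.0791). PSME4, a large nuclear activator, had 5.49, 5.19 and 5.60 FPKM with siRNA2, 4.45, 4.47 and 4.65 FPKM with siRNA1, and 8.08, 7.58 and 6.88 FPKM with control siRNA. Its control libraries lay highest and its siRNA1 libraries lowest, with no overlap, and it fell with siRNA2 (log2 fold change -0.47, SE 0.071, adjusted p = 3.99e-06) and with siRNA1 (log2 fold change -0.73, SE 0.072, adjusted p = 6.38e-09). PSME1, PSME2, PSME3 and PSME4 each overlap a gene on the opposite strand.

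PSMF1, described as an inhibitor of the core, was called in opposite directions by the siRNAs. It had 7.11, 7.12 and 6.68 FPKM with siRNA2, 11.9, 12.4 and 12.2 FPKM with siRNA1, and 10.3, 10.4 and 11.2 FPKM with control siRNA. No groups overlapped: siRNA2 lay lowest, siRNA1 highest and control between. It fell with siRNA2 (log2 fold change -0.61, SE 0.062, adjusted p = 7.15e-09) and rose with siRNA1 (log2 fold change 0.19, SE 0.061, adjusted p = 0.0111). Without control library 1 the siRNA1 rise was no longer called (adjusted p = 0.0548).

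Promoter sequences are shown for the 5 genes of the interferon-gamma group, because these moved together, and were taken from RefSeq (GRCh38.p14), 250 bases before to 50 bases after the RefSeq start of the gene. For PSMB9 and PSME2 that start lies well inside the gene as the deposited table bounds it, so their windows are not at the outer end of the table's gene. For PSMB10 and PSME1 the RefSeq start lies a short way inside. Capitals mark 3 motifs, searched on both strands: a pair of GAAA set apart by NN, the core of the element that interferon regulatory factors bind, TTCNNNGAA, the form of the gamma-activated site, and TGACNNNGC, the core of the element that NFE2L1 and NFE2L2 bind. A plain CCAAT was searched too and is not capitalised. A match is a description of the letters only.
PSMB8 promoter, chr6:32844630-32844929, minus strand: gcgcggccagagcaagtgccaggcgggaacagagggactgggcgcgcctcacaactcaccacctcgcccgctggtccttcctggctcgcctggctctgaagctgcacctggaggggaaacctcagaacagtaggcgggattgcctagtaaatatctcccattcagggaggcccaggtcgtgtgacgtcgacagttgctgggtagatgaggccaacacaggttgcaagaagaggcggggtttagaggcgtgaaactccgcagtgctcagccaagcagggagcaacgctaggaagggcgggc
PSMB9 promoter, chr6:32853942-32854241, plus strand: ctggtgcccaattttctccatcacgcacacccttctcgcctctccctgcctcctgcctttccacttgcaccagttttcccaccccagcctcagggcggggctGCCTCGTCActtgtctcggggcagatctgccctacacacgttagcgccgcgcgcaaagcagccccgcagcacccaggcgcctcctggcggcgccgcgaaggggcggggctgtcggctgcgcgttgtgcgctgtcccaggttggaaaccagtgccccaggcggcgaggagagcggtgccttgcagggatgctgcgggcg
PSMB10 promoter, chr16:67936801-67937100, minus strand: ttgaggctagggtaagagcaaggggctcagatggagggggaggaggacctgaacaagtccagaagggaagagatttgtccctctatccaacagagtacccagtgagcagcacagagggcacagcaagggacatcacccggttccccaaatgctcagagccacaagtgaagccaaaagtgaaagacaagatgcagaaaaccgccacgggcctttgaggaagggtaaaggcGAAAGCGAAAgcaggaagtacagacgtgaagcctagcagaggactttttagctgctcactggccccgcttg
PSME1 promoter, chr14:24135944-24136243, plus strand: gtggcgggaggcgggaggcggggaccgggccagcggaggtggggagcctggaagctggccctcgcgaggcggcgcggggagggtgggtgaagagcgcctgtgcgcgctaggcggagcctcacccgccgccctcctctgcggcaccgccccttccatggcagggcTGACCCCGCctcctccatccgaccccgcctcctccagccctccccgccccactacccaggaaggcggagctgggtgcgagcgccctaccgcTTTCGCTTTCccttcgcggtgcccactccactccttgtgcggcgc
PSME2 promoter, chr14:24146561-24146860, minus strand: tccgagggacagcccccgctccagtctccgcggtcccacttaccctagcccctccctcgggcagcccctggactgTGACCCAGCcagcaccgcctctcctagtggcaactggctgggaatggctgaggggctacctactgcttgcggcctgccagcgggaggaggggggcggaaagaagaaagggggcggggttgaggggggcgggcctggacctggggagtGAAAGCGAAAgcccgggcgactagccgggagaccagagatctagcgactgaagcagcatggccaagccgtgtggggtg
In these windows PSMB10, PSME1 and PSME2 hold the GAAA pair, PSMB9, PSME1 and PSME2 hold TGACNNNGC, and PSMB8 holds none of the 3. A promoter was matched for 44 of the 50 members. Of these, 6 hold the GAAA pair (13.6%), beside 3.65% of all 27305 promoters of the same length, and the others are PSMB4, PSMG4 and PSMA4. PSMB4 fell with siRNA2, PSMG4 fell with both siRNAs and PSMA4 was called with neither, so members with these letters moved in both directions. TGACNNNGC is held by 14 (31.8%), beside 13.6% of all promoters. CCAAT is held by 20 (45.5%) beside 35.7% and TTCNNNGAA by 5 (11.4%) beside 7.88%. PSMB1, PSMA7, PSMB7, PSMB6, PSMG3 and PSMD4 were not matched.

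Among the 7 constitutive beta subunits only PSMB4 changed with siRNA2. PSMB4, a subunit without a peptidase site, lies on chr1:151399560-151401937 and overlaps no other gene. It had 60.5, 59.3 and 54.1 FPKM with siRNA2, 127, 118 and 132 FPKM with siRNA1, and 116, 121 and 129 FPKM with control siRNA. The siRNA2 libraries lay far under the others, which overlapped. Its level averaged 58.0 ± 3.36 FPKM with siRNA2, 126 ± 6.94 FPKM with siRNA1 and 122 ± 6.71 FPKM with control siRNA (SD, n = 3 each). It fell with siRNA2 (log2 fold change -1.07, SE 0.063, adjusted p = 3.6e-13), to 0.475 of the control level, while the siRNA1 value was 0.04 (adjusted p = 0.632). As a share of the median of the other constitutive beta subunits it was 54.7% ± 2.92 with siRNA2, 102% ± 2.84 with siRNA1 and 117% ± 4.49 with control siRNA (SD, n = 3 each). The share also depends on those other subunits. PSMB5 and PSMB6, which lie near that median, were called higher with siRNA1, where PSMB4 itself was not called. The role list as a whole had 1 lower and 0 higher of 7 with siRNA2, and 0 lower and 2 higher with siRNA1, the 2 being PSMB5 and PSMB6. Of all genes tested, 28.9% were lower and 27.2% higher with siRNA2, and 25.3% lower and 25.1% higher with siRNA1. The same shares stand beside the counts of the alpha, base, lid and chaperone lists below, and no list was tested as a group.

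The 7 tested alpha subunits, which form the gated ends of the core, had 2 higher and 0 lower with siRNA2, and 0 higher and 2 lower with siRNA1. PSMA6 had 15.6, 14.5 and 15.6 FPKM with siRNA2, 12.3, 12.7 and 12.9 FPKM with siRNA1, and 11.8, 11.3 and 12.8 FPKM with control siRNA. Only siRNA2 lay apart from control (log2 fold change 0.34, SE 0.065, adjusted p = 7.37e-05). PSMA5 had 29.1, 28.1 and 28.9 FPKM with siRNA2, 24.9, 25.1 and 25.3 FPKM with siRNA1, and 29.5, 29.9 and 33.0 FPKM with control siRNA. It fell with siRNA1 (log2 fold change -0.29, SE 0.058, adjusted p = 0.000168). PSMA1 had 59.8, 57.3 and 58.4 FPKM with siRNA2, 43.3, 41.4 and 43.2 FPKM with siRNA1, and 49.2, 47.8 and 53.0 FPKM with control siRNA. No groups overlapped, and it rose with siRNA2 (log2 fold change 0.23, SE 0.058, adjusted p = 0.00181) and fell with siRNA1 (log2 fold change -0.23, SE 0.059, adjusted p = 0.00204). PSMA1 and PSMA6 each overlap a gene on the same strand.

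Of the 6 base ATPases, 2 fell and 2 rose with siRNA2, and 1 rose with siRNA1. PSMC3 had 128, 128 and 125 FPKM with siRNA2, 153, 145 and 158 FPKM with siRNA1, and 157, 161 and 176 FPKM with control siRNA. Every siRNA2 library lay under every control library, and it fell with siRNA2 (log2 fold change -0.38, SE 0.057, adjusted p = 3.59e-06). PSMC6 had 9.74, 10.1 and 10.5 FPKM with siRNA2, 12.9, 13.2 and 13.0 FPKM with siRNA1, and 11.5, 10.7 and 12 FPKM with control siRNA. The groups did not overlap, and it fell with siRNA2 (log2 fold change -0.18, SE 0.064, adjusted p = 0.0216) and rose with siRNA1 (log2 fold change 0.19, SE 0.064, adjusted p = 0.0139). Its siRNA2 call was lost without control library 1 or 3 or siRNA2 library 1 or 2 (adjusted p = 0.0633 to 0.0945), with no filter (0.123) and with a minimum mean FPKM of 1 (0.0517), and its siRNA1 call without control library 2 (0.0876) or siRNA1 library 1 (0.053). PSMC1 had 2.10, 1.95 and 2.08 FPKM with siRNA2, 1.36, 1.83 and 1.77 FPKM with siRNA1, and 1.48, 1.74 and 1.51 FPKM with control siRNA. It rose with siRNA2 (log2 fold change 0.37, SE 0.123, adjusted p = 0.0117). The level of PSMC1 is uncertain, because 13 pseudogene rows of the same name held 1458 counts with siRNA2, 1375 with siRNA1 and 1175 with control siRNA in all. PSMC1 itself held 695 counts with siRNA2, 544 with siRNA1 and 466 with control siRNA. PSMC4 rose with siRNA2 (log2 fold change 0.17, SE 0.064, adjusted p = 0.0256), a call lost without siRNA2 library 1 (0.138) or 2 (0.0618) or control library 2 (0.113).

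The 4 base subunits that are not ATPases are scaffolds and ubiquitin receptors, of which 2 rose and 1 fell with siRNA2, and 1 rose and 2 fell with siRNA1. PSMD2, a scaffold, was the most abundant member with siRNA2 and with control siRNA, and had 351, 341 and 334 FPKM with siRNA2, 259, 236 and 254 FPKM with siRNA1, and 297, 306 and 318 FPKM with control siRNA. The groups did not overlap, and it rose with siRNA2 (log2 fold change 0.16, SE 0.051, adjusted p = 0.0113) and fell with siRNA1 (log2 fold change -0.30, SE 0.051, adjusted p = 3.29e-05). Without siRNA2 library 1, the siRNA2 change had an adjusted p = 0.05. PSMD1, the other scaffold, fell with siRNA1 (log2 fold change -0.16, SE 0.056, adjusted p = 0.023), which was not called without control library 1 (0.101) or siRNA1 library 1 (0.058) or 3 (0.0815). The PSMD1 call was also lost with library totals only (0.057) and with the compared groups alone (0.0504). PSMD4, a ubiquitin receptor, had 95, 85.8 and 85.3 FPKM with siRNA2, 97.4, 83.0 and 98.3 FPKM with siRNA1, and 74.0, 71.5 and 81.9 FPKM with control siRNA. It rose with siRNA2 (log2 fold change 0.23, SE 0.069, adjusted p = 0.00679) and with siRNA1 (log2 fold change 0.29, SE 0.069, adjusted p = 0.000928) and the siRNA2 call was lost without control library 2 (0.0511) or siRNA2 library 1 (0.0609). ADRM1, the other ubiquitin receptor, had 189.7, 179 and 179.7 FPKM with siRNA2, 229, 198 and 229.6 FPKM with siRNA1, and 191, 203 and 224 FPKM with control siRNA. It fell with siRNA2 (log2 fold change -0.17, SE 0.065, adjusted p = 0.0266), although without control library 3 (0.134) or siRNA2 library 2 (0.0901) or 3 (0.0908) the call was lost, and likewise with DESeq2 (0.0655), with median-of-ratios scaling (0.052), with a minimum mean FPKM of 1 (0.0673), and with limma on log2(FPKM+1) (0.0546) or log2(FPKM+0.1) (0.0532).

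Of the 8 lid subunits, 1 fell and 1 rose with siRNA2, and 2 fell with siRNA1. PSMD3, a lid scaffold, lies on chr17:39980807-39997959, overlaps no other gene, and had 33.0, 32.4 and 32.6 FPKM with siRNA2, 62.2, 56.8 and 61.1 FPKM with siRNA1, and 61.2, 65.4 and 67.3 FPKM with control siRNA. The siRNA2 libraries lay far under the rest, which overlapped. It fell with siRNA2 (log2 fold change -0.98, SE 0.057, adjusted p = 3.21e-13), to 0.505 of the control level, and had -0.11 (adjusted p = 0.121) with siRNA1. As a share of the median of the other lid subunits it was 126% ± 1.02 with siRNA2, 276% ± 21.9 with siRNA1 and 261% ± 12.1 with control siRNA (SD, n = 3 each). PSMD12 and PSMD11, both scaffold subunits too, fell with siRNA1 and were not called with siRNA2. PSMD12 had 21.1, 22.9 and 21.5 FPKM with siRNA2, 13.1, 14.0 and 12 FPKM with siRNA1, and 20.9, 19.5 and 21.9 FPKM with control siRNA. With siRNA1 it fell (log2 fold change -0.67, SE 0.069, adjusted p = 1.23e-08), while siRNA2 gave 0.07 (adjusted p = 0.381). PSMD11 had log2 fold changes of -0.48 (adjusted p = 1.38e-07) with siRNA1 and 0.04 (adjusted p = 0.574) with siRNA2. PSMD14, the deubiquitinase of the lid, had 24.6, 25.1 and 25.7 FPKM with siRNA2, 21.7, 22.6 and 21.0 FPKM with siRNA1, and 20.9, 19.5 and 21.4 FPKM with control siRNA. It rose with siRNA2 (log2 fold change 0.29, SE 0.058, adjusted p = 0.000162). The other 4 lid subunits were called in neither comparison against control.

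Of the 8 assembly chaperones, 2 fell and 1 rose with siRNA2, and 4 fell and 2 rose with siRNA1. Beside these stand 28.9% lower and 27.2% higher of all genes with siRNA2, and 25.3% lower and 25.1% higher with siRNA1. The chaperones held the largest fall and the largest rise of any member with siRNA1. PSMD5, a chaperone of the base, lies on chr9:120815496-120842951 and had 15.9, 16.6 and 15.9 FPKM with siRNA2, 8.95, 8.40 and 8.17 FPKM with siRNA1, and 17.3, 16.1 and 15.6 FPKM with control siRNA. The siRNA1 libraries lay under all others, and siRNA2 and control overlapped. It fell with siRNA1 (log2 fold change -0.94, SE 0.071, adjusted p = 5.03e-11), to 0.521 of the control level, and had -0.02 (adjusted p = 0.849) with siRNA2. PSMD5 overlaps CUTALP on the opposite strand. PSMD10, a chaperone of the base also known as gankyrin, had 14.3, 12.2 and 14.5 FPKM with siRNA2, 20.1, 20.5 and 20.7 FPKM with siRNA1, and 13.1, 11.5 and 12.6 FPKM with control siRNA. It rose with siRNA1 (log2 fold change 0.72, SE 0.083, adjusted p = 8.21e-08), and siRNA2 overlapped control (log2 fold change 0.14, SE 0.084, adjusted p = 0.166). POMP, which matures the core, had 110.3, 106 and 111 FPKM with siRNA2, 88.3, 92.0 and 84.5 FPKM with siRNA1, and 90.9, 78.8 and 101 FPKM with control siRNA. It rose with siRNA2 (log2 fold change 0.27, SE 0.071, adjusted p = 0.00232). PSMG1, which with PSMG2 starts the alpha ring, had 11.2, 11.8 and 11.6 FPKM with siRNA2, 16.5, 17.2 and 15.8 FPKM with siRNA1, and 17.7, 19.4 and 21.7 FPKM with control siRNA. The groups did not overlap, and it fell with siRNA2 (log2 fold change -0.76, SE 0.085, adjusted p = 3.42e-08) and with siRNA1 (log2 fold change -0.25, SE 0.083, adjusted p = 0.0139). The siRNA1 call was lost without control library 3 (adjusted p = 0.065) or siRNA1 library 3 (0.0642). PSMG4, the partner of PSMG3, had log2 fold changes of -0.55 (adjusted p = 3.84e-06) with siRNA2 and -0.28 (adjusted p = 0.00623) with siRNA1, and overlaps TUBB2B and SLC22A23 on the opposite strand. With siRNA1 the log2 fold change was -0.28 (adjusted p = 0.00545) for PSMG2 and 0.19 (adjusted p = 0.0348) for PSMD9, a chaperone of the base. PSMD9 was not called without control library 1 (0.219) or 2 (0.0841) or siRNA1 library 1 (0.206) or 3 (0.149), nor with the compared groups alone (0.059).

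**Figure D4:**
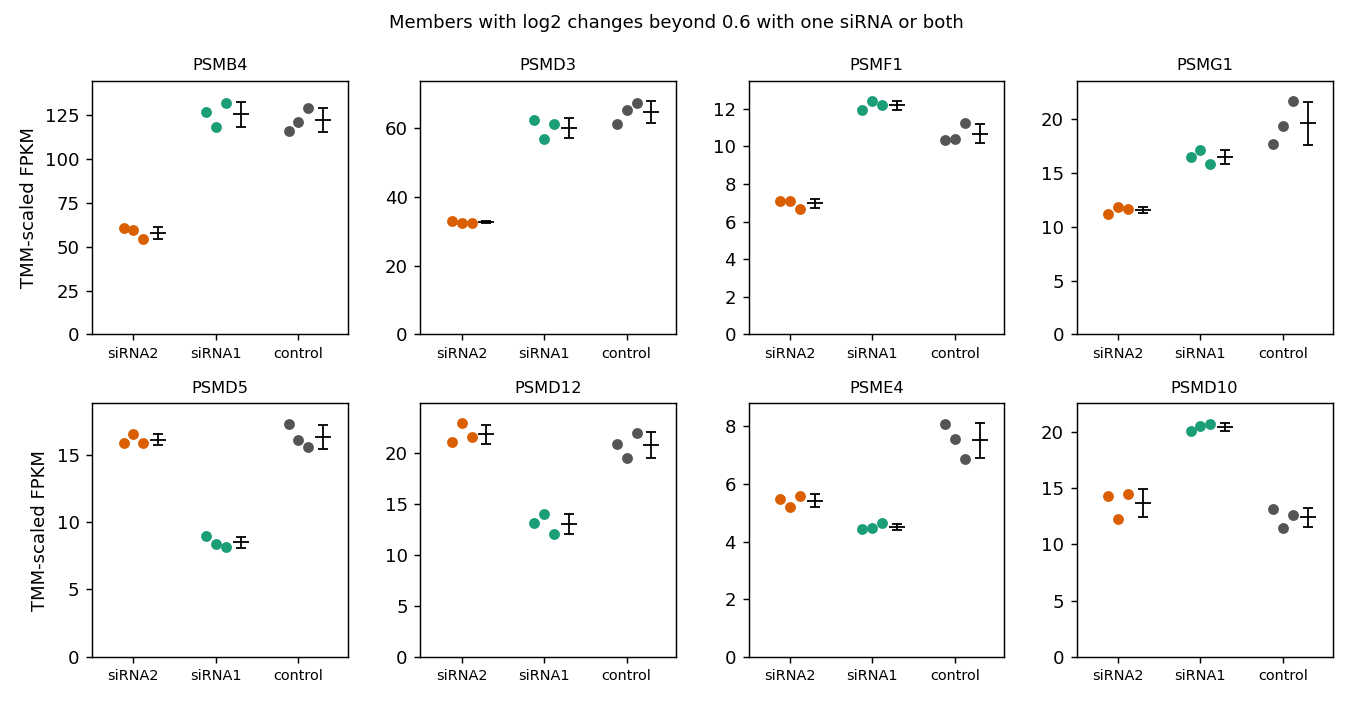
Level in TMM-scaled FPKM of the 8 proteasome genes with the largest changes against control siRNA, with a point for each library and bars for the mean ± SD (n = 3). PSMB4, PSMD3, PSMF1 and PSMG1 are lowest with MILIP siRNA2, PSMD5, PSMD12 and PSME4 are lowest with MILIP siRNA1, and PSMD10 is highest with MILIP siRNA1.

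Set against each other, the siRNAs differed most in PSMB4 and PSMD5. Between siRNA2 and siRNA1, 17 members were lower with siRNA2 and 11 higher, together 58.3% of the 48, beside 60.4% of all genes tested, of which 32% were lower and 28.4% higher. Without siRNA1 library 1, 9 members were lower, and 19 were called in all. In absolute size the members' median was 0.203, beside 0.403 over all genes. The largest differences were PSMB4 (log2 fold change -1.11, SE 0.063, adjusted p = 1.08e-13) and PSMD5 (log2 fold change 0.92, SE 0.071, adjusted p = 3.21e-11). PSMD3 had -0.88 (adjusted p = 1.61e-12), PSMF1 had -0.81 (adjusted p = 3.64e-11) and PSMD12 had 0.75 (adjusted p = 9.97e-10) on the log2 scale. Among the immunoproteasome subunits PSMB8 had 0.01 (adjusted p = 0.912) and PSMB10 had 0.12 (adjusted p = 0.21), while PSMB9 was lower with siRNA2, at -0.20 (adjusted p = 0.0331). The PSMB9 difference was lost with DESeq2 (0.0742), with median-of-ratios scaling (0.0605), with no filter (0.131) and without any of control library 1, siRNA1 library 1 or 3 and siRNA2 library 1 or 2, with adjusted p from 0.0609 to 0.168.

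Short words in the 3 prime UTR were compared, since siRNAs can act on transcripts that match their seed. Guide sequences are not used here. For each siRNA the word of 7 bases was taken that went with the lowest values over genes that are not members, with its overlapping second form. These were AATTCCA and ATTCCAA for siRNA1, and GACCCTA and ACCCTAA for siRNA2, and they had been known from an earlier look at these data. Both first forms occur in MILIP itself, and so does the second siRNA1 form, ATTCCAA, but not the second siRNA2 form. The stretches below are from GENCODE v29 (GRCh38), with the word in capitals, and show MILIP, and the members that hold a word in the 3 prime UTR. For MILIP only the first form is in capitals, although ATTCCAA overlaps it in the siRNA1 stretch.
MILIP, AATTCCA, chr17:81930350-81930376, plus strand: gagtcagggcAATTCCAaccaagaaac
MILIP, GACCCTA, chr17:81930474-81930500, plus strand: gtaacatagaGACCCTAtcgctacaag
PSMD12, chr17:67340515-67340541, minus strand: taacaaacatATTCCAAtaataaaagc
PSME4, chr2:53865522-53865548, minus strand: tttcatcaaaAATTCCAcaccctcagg
PSMD9, chr12:121917660-121917687, plus strand: tctcacactcAATTCCAAagccttccta
PSMB2, chr1:35600914-35600940, minus strand: tagatatgagAATTCCAtgaagtaata
PSMA7, chr20:62139559-62139585, minus strand: ggcatgggatATTCCAAattcctgtgt
PSMF1, chr20:1165880-1165907, plus strand: cttagtgaatGACCCTAAgcaagttcct
PSMA4, chr15:78551911-78551938, plus strand: ttcagaatttGACCCTAAcagcaggcaa

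Each gene was read from its annotated transcript with the longest 3 prime UTR, both before and after the stop codon. Whether these cells express that transcript was not examined. A siRNA1 word was in the 3 prime UTR of 5 of the 48 tested members (10.4%), beside 23.7% of 12574 other genes. Of the 5, PSMD12 and PSME4 fell with siRNA1, PSMD9 rose, and PSMB2 and PSMA7 were not called. A siRNA2 word was in 2 members (4.17%), beside 10.8% of other genes, and of these PSMF1 fell with siRNA2 and PSMA4 was not called. Among other genes the median log2 fold change was -0.203 with a siRNA1 word and 0.051 without, and -0.235 with a siRNA2 word and 0.023 without. Of these other genes, 1346 of the 2975 with a siRNA1 word were called lower with siRNA1. With siRNA2, 646 of the 1355 with a siRNA2 word were called lower. The words were chosen on these same genes, so the lower medians and these counts follow from the choice and support nothing. PSMB4, PSMG1 and PSMG4, which fell with siRNA2, hold no siRNA2 word in the 3 prime UTR. Before the stop codon, 5 members hold a siRNA2 word (10.4%, beside 9.98% of other genes). Of these, PSMD3 and PSMC6 fell with siRNA2, PSMD2 rose, and PSMA2 and PSMA4 were not called. A siRNA1 word stands before the stop codon in 5 members (10.4%, beside 19.6% of other genes). Of these, PSMD5, PSMD11, PSMD1 and PSME4 fell with siRNA1 and PSMB1 was not called. How many other genes with a word before the stop codon fell was not counted. The calls of members with such a word thus have no background beside them. Of the members that fell, 10 of 12 with siRNA1 and 9 of 10 with siRNA2 had no such word in the 3 prime UTR, beside 61.9% and 83.6% of the other genes that fell. Among all tested members, 43 of 48 have no siRNA1 word there and 46 of 48 no siRNA2 word. Whether any of these changes follows from a match to the siRNA was not tested.

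Genes that act with the proteasome without being members were read from a list of 27, all tested. With siRNA2, 11 fell and 7 rose, with a median log2 fold change of 0.006, and with siRNA1, 7 fell and 6 rose, with a median of 0.017. Over all genes tested, 28.9% were lower and 27.2% higher with siRNA2, and 25.3% lower and 25.1% higher with siRNA1. UBQLN2, a shuttle that brings ubiquitinated proteins to the proteasome, had 2.08 ± 0.2 FPKM with siRNA2, 8.35 ± 0.684 FPKM with siRNA1 and 7.73 ± 0.341 FPKM with control siRNA (SD, n = 3 each) and fell with siRNA2 (log2 fold change -1.90, SE 0.101, adjusted p = 5.61e-14). DDI2, a protease that activates the transcription factor NFE2L1, had 1.33 ± 0.104 FPKM with siRNA2, 2.97 ± 0.289 FPKM with siRNA1 and 3.07 ± 0.373 FPKM with control siRNA (SD, n = 3 each) and fell with siRNA2 (log2 fold change -1.20, SE 0.102, adjusted p = 3.07e-10). IPO9, an importin that carries proteasomes into the nucleus, had a log2 fold change of -0.71 (adjusted p = 5.84e-10) with siRNA2 and -0.23 (adjusted p = 0.00287) with siRNA1. PITHD1, a protein that associates with the proteasome, had 26.1 ± 1.48 FPKM with siRNA2, 9.03 ± 0.177 FPKM with siRNA1 and 30.7 ± 2.12 FPKM with control siRNA (SD, n = 3 each) and fell with siRNA1 (log2 fold change -1.77, SE 0.08, adjusted p = 2.87e-15) and with siRNA2 (log2 fold change -0.24, SE 0.073, adjusted p = 0.0075), where the call was lost without siRNA2 library 3 (0.0626). UCHL5, a deubiquitinase of the base, had log2 fold changes of -0.45 (adjusted p = 9.34e-05) with siRNA2 and -0.63 (adjusted p = 1.48e-06) with siRNA1. ZFAND5, which stimulates the proteasome, had 0.62 (adjusted p = 5.49e-09) with siRNA2 and 0.55 (adjusted p = 5.9e-08) with siRNA1. NFE2L1, which raises proteasome genes when the proteasome is inhibited, was chosen after its values were seen. It had 114 ± 1.79 FPKM with siRNA2, 77.3 ± 1.71 FPKM with siRNA1 and 93.3 ± 2.28 FPKM with control siRNA (SD, n = 3 each), rising with siRNA2 (log2 fold change 0.29, SE 0.05, adjusted p = 2.49e-05) and falling with siRNA1 (log2 fold change -0.27, SE 0.05, adjusted p = 7.88e-05). NFE2L2, which binds the same TGACNNNGC core, was likewise chosen afterwards. It rose with siRNA2 (log2 fold change 0.385, SE 0.06, adjusted p = 5.31e-06) and with siRNA1 (log2 fold change 0.334, SE 0.06, adjusted p = 4.77e-05).

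The list of interferon-gamma and class I loading genes outside the proteasome held 11 genes, all tested. With siRNA2, 7 rose and 2 fell, with a median log2 fold change of 0.35, and with siRNA1, 7 rose and 1 fell, with a median of 0.36, beside medians of -0.011 and 0.003 over all genes. TAP1, a subunit of the peptide transporter and a neighbour of PSMB9, had 20.3 ± 0.566 FPKM with siRNA2, 16.5 ± 0.728 FPKM with siRNA1 and 12.5 ± 0.35 FPKM with control siRNA (SD, n = 3 each) and rose with siRNA2 (log2 fold change 0.70, SE 0.065, adjusted p = 1.19e-09) and with siRNA1 (log2 fold change 0.40, SE 0.065, adjusted p = 1.3e-05). Its partner TAP2 had 6.57 ± 0.385 FPKM with siRNA2, 13.6 ± 0.333 FPKM with siRNA1 and 15.1 ± 0.367 FPKM with control siRNA (SD, n = 3 each) and fell with siRNA2 (log2 fold change -1.20, SE 0.067, adjusted p = 1.38e-13), with -0.15 (adjusted p = 0.0539) for siRNA1. HLA-C rose with siRNA2 (log2 fold change 0.75, SE 0.117, adjusted p = 6.29e-06) and with siRNA1 (log2 fold change 0.47, SE 0.119, adjusted p = 0.0017), and HLA-B with siRNA2 (log2 fold change 0.56, SE 0.078, adjusted p = 1.26e-06) and with siRNA1 (log2 fold change 0.54, SE 0.078, adjusted p = 2.64e-06). IRF1, a transcription factor of the interferon response, had 0.08 (adjusted p = 0.395) with siRNA2 and rose with siRNA1 (log2 fold change 0.54, SE 0.074, adjusted p = 1.17e-06). HLA genes share stretches with their near copies, so their counts are uncertain.

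In control cells the members differed widely in level. The highest averaged 307 FPKM for PSMD2, 278 FPKM for PSMA7 and 206 FPKM for ADRM1, and the lowest tested averaged 1.58 FPKM for PSMC1, 3.13 FPKM for PSMA2 and 3.54 FPKM for PSMG4. PSMC1 encodes an ATPase of the base and PSMA2 an alpha subunit. Both have pseudogene rows, and PSMA2 overlaps a gene on the same strand, so their low levels are uncertain. The order of genes by level also depends on the exonic length, which was 10415 bases for PSMG4 and 1973 bases for PSMG3. In control library 1 these had 577 and 574 counts, at 3.42 and 17.96 FPKM. PSMB9 (8.57 FPKM) was the least abundant immunoproteasome subunit in control cells, and PSMB2 (45.4 FPKM) the least abundant constitutive beta subunit.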

How the data were processed

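The authors deposited 1 table for the 9 libraries, with a count and an FPKM value per gene and library and an exonic length per gene. Per the submitters' processing notes, Trimmomatic 0.30, HISAT2 2.0.1, HTSeq 0.6.1 and DESeq were used, without a role for each. The deposited FPKM values equal count over exonic length and library total for 100% of values within 0.005. The notes name hg19, but 99.98% of 58394 gene identifiers in GENCODE v29 overlap the same gene at GRCh38 coordinates, so GRCh38 is used here. No source used here states the strandedness. Of the members, 26 overlap a gene on the opposite strand, 13 one on the same strand, and 14 have pseudogene rows.

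Counts were filtered with filterByExpr (minimum count 10, minimum total 15), which left 15345 genes and set 45267 aside. TMM factors scaled them. All 3 groups entered a single edgeR quasi-likelihood fit (R 4.3.3, edgeR 4.0.16), with two-sided tests, Benjamini-Hochberg adjustment over all tested genes and a threshold of 0.05. Levels are TMM-scaled FPKM. The common biological coefficient of variation was 0.0641. Between replicate libraries the chi-square per gene was 2.18 to 8.78, and none were identical. Alternatives were DESeq2 1.42.0, limma 3.58.1 on log2(FPKM+1) or log2(FPKM+0.1), other scalings and filters, a replicate block, the compared groups alone, and each library left out. The fit was tested on simulated data. The members, role lists, 7-base words and motifs were chosen with earlier results of these data known. Values in every library are given for the 6 catalytic subunits and, in each role list, for the called members with the largest rise and fall in each comparison against control, and members called in opposite directions are named. Other members named besides were picked from their calls. Outside the members, the 3 called genes of each list with the largest change per comparison are named. Some genes of these lists are not reported here. Sequences came from RefSeq promoters (GRCh38.p14) and GENCODE v29 transcripts.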

Additional observations from a re-analysis of the deposited data

Results flagged for a closer look

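Of the 48 tested members, 28 differed between the siRNAs in the direct comparison of siRNA2 with siRNA1 in edgeR's quasi-likelihood test (Benjamini-Hochberg adjusted p below 0.05), beside 60.4% of all genes tested. As both siRNAs were set against the same control libraries, this is the test of the difference between their effects.

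Lower with siRNA2 than with siRNA1, as log2 fold changes, were PSMB4 (-1.114), PSMD3 (-0.878), PSMF1 (-0.805), PSMD10 (-0.58), PSMG1 (-0.511) and PSMC6 (-0.371). The rest of the lower members lay closer to 0. They were PSMA2 (-0.319), PSMG4 (-0.271), PSMC3 (-0.26), ADRM1 (-0.258), PSMD9 (-0.248), PSMB6 (-0.227), PSMG3 (-0.213), PSMB9 (-0.205), PSMB5 (-0.2), PSME1 (-0.17) and PSMB2 (-0.164). Higher with siRNA2 than with siRNA1 were PSMD5 (0.923), PSMD12 (0.746), PSMD11 (0.516), PSMA1 (0.456) and PSMD2 (0.452), and also POMP (0.304), PSMC1 (0.294), PSMA6 (0.271), PSME4 (0.262), PSMD14 (0.207) and PSMA5 (0.194). PSMB8 and PSMB10 are not among them. Without siRNA1 library 1, 19 of the 28 were called. The PSME1 libraries of the siRNAs overlap, and its difference was not called with DESeq2 (adjusted p = 0.0933), median-of-ratios scaling (0.0781), no filter (0.122) or a minimum mean FPKM of 1 (0.0563), nor in 5 of the fits that left a library out (0.077 to 0.158). PSMG3 was not called with DESeq2 (0.0563) or no filter (0.112), nor in 4 such fits (0.0538 to 0.169). PSMC1 was not called with library totals only (0.0608) or limma (0.0837 and 0.0971), nor in 3 such fits (0.0857 to 0.185). PSMB2 was not called with no filter (0.0943), nor in 2 such fits (0.108 and 0.117), and PSMB9 also lost its call in several settings.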

How the results depend on the processing

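Counts of called members stayed within 1.5 times their value in 81 of 81 values over DESeq2, other scalings, other filters, limma, the replicate block and the compared groups alone. No called member changed sign. With each library left out, the counts ran from 8 to 10 lower and 10 to 14 higher with siRNA2, from 9 to 12 lower and 8 to 13 higher with siRNA1, and from 9 to 17 lower and 10 to 13 higher between siRNA2 and siRNA1. Lower with both siRNAs were 2 to 5, higher with both 5 to 6, and opposite 2 to 5. The lowest of these came without siRNA1 library 1 (9 lower between the siRNAs), without siRNA1 library 3 (2 lower with both), and without control library 1 or siRNA2 library 1 (2 opposite), and the cause was not tested. Without control library 3, 6 uncalled values changed sign and moved by more than 1 SE, at the upper end of their range with each library left out. Over all alternatives, a further 68 uncalled values of members and of the other genes followed changed sign within 1 SE. These reached at most 0.047 in absolute size. The ranges that follow are those of the 6 values. With siRNA1 the ranges were -0.125 to 0.037 for POMP and -0.104 to 0.03 for PSMC5. With siRNA2 they were -0.096 to 0.028 for PSMA7, -0.154 to 0.027 for PSMB3, -0.114 to 0.007 for PSMB7 and -0.081 to 0.049 for PSMC5. Libraries of the same number correlated at -0.051 to 0.097, so the numbers do not pair them. With the replicate block 23, 24 and 28 members were called in the 3 comparisons, all shared with the fit without it. DESeq2, median-of-ratios scaling and library totals moved the median of all genes by at most 0.027. PSMA8, with 0 counts in every library, and PSMB11, with 1 count in 1 library, could not be tested.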
